A study of Mus musculus with 12 samples.

Results

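The 50 genes described here encode enzymes that attach glutathione, glucuronic acid or sulfate to other molecules, and they were chosen by name alone. A gene was taken where an array row carried 1 gene symbol that begins with Gsta, Gstm, Gstp, Gstt, Gsto, Gstk, Gstz, Mgst, Ugt1a, Ugt2a, Ugt2b or Sult followed by a number. They are 50 of the 22180 genes that have such a row, among 33793 rows in all, and each has 1 row. There are 21 glutathione S-transferases (2 Gsta, 6 Gstm, 3 Gstp, 4 Gstt, 2 Gsto, 1 Gstk and 3 Mgst genes), 8 UDP-glucuronosyltransferases of the Ugt2a and Ugt2b families, and 21 sulfotransferases (6 Sult1 genes and 15 of the families Sult2 to Sult7). No Ugt1a or Gstz gene met the rule, because their rows list several symbols, and 9 such shared rows were kept apart from the 50.

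Conjugation is the step in which a drug, a plant compound, a hormone or a product of oxidation is joined to a charged group, so that it dissolves in water and can be pumped out of the cell. Glutathione S-transferases join glutathione to electrophiles, UDP-glucuronosyltransferases of the endoplasmic reticulum add glucuronic acid to hydroxyl and carboxyl groups, and cytosolic sulfotransferases add sulfate. In the small intestine these enzymes are part of first-pass metabolism and meet dietary and bile-borne molecules in enterocytes, the absorptive cells that mature as they leave the crypt for the villus.

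Crypt-enriched tissue was taken by laser microdissection from frozen proximal small intestine, and the RNA of each mouse was hybridized to 1 Affymetrix array. All 12 mice carried ApcMin/+, an Apc mutation that causes intestinal adenomas, were untreated, and were 12 weeks old. In 6 of them 1 allele of Zfp148, a zinc finger transcription factor, was also the gt allele (Zfp148gt/+APCMin/+, mice 783, 891, 892, 893, 897 and 911), and 6 had both wild-type alleles (Zfp148+/+APCMin/+, here called controls, mice 782, 885, 888, 889, 895 and 899). The mice were of a mixed 129/Bl6 background and the methods speak of littermate controls without saying which mice were littermates, so they were compared as unpaired. Both groups are ApcMin/+, so neither is a wild-type intestine, and the gt allele is carried by every cell of the animal.

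Values are log2 signals after RMA normalization, differences are Zfp148gt/+ minus control, and n = 6 mice per genotype throughout. Levels of single genes were not set against each other, since every row has its own probes, and a signal above or below the median of all rows says only how bright that row is. The Zfp148 signal itself was 5.45 ± 0.37 (SD) in Zfp148gt/+ mice and 6.34 ± 0.31 in controls, with no overlap of the groups. All 10 Paneth, 9 goblet and 14 crypt and stem cell markers were above the median signal of all rows, as were 17 of 21 villus enterocyte markers and 4 of 10 hepatocyte and pancreas markers. The mean of the villus enterocyte markers was 5.36 to 6.14 over the Zfp148gt/+ mice and 5.38 to 6.17 over the controls. All 16 fibroblast and smooth muscle markers had lower means in Zfp148gt/+ mice. Their averaged signal was 6.45 ± 0.18 (6.21 to 6.72) against 6.88 ± 0.31 (6.32 to 7.27) in controls, with p = 0.0216 by exact permutation (two-sided). The interquartile range of an array was also smaller in Zfp148gt/+ mice, 2.77 ± 0.09 against 2.92 ± 0.07 (p = 0.0173, exact permutation). Sex is not in the labels. Xist, the RNA made from an inactive X chromosome, was at 1.78 to 2.46 in 8 mice and at 9.01 to 9.59 in the other 4, with 4 low and 2 high mice in each genotype.

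No conjugating enzyme passed between the genotypes. By limma with Benjamini-Hochberg adjustment over all 33793 rows, 0 of 50 members had an adjusted p under 0.05, as had 0% of all rows, and the lowest adjusted p of any row was 0.63. Zfp148 was among the rows that did not pass. Before adjustment, 1 member was higher at p under 0.05, Sult2a1, and 3 were lower, Gstt1, Gstm2 and Ugt2b37, while 3.88% of all rows were higher and 2.88% lower at that threshold. With each array centred on its median those shares of all rows were 2.06% and 4.45%, and the members still numbered 1 higher and 3 lower. In 0 of the 50 members did the genotypes separate without overlap, beside 0.225% of all rows with every Zfp148gt/+ mouse above every control and 0.0829% with every one below.

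The split of the members followed their signal, as did that of all rows, but was more uneven among the brighter members than among all brighter rows. Of the 27 members above the median signal of all rows, 2.71, 4 had a higher mean in Zfp148gt/+ mice and 23 (85.2%) a lower one. Their median log2 fold change was -0.14. Among all rows above that median 9865 of 16896 (58.4%) had a lower mean, with a median of -0.04. The difference between these shares was not tested. Of the 27, 0 were higher and 2 lower before adjustment at p under 0.05, beside 2.41% higher and 5.08% lower among all rows of that signal. Of the 23 members at or below 2.71, 15 had a higher and 8 (34.8%) a lower mean. Among all rows at or below 2.71, 5399 of 16897 (32.0%) had a lower mean. Of the 23, 1 was called higher and 1 lower before adjustment, beside 5.36% higher and 0.675% lower among all such dim rows. Over all 50 the median log2 fold change was -0.04, against 0.02 over all rows. With the interquartile range of the arrays as a covariate it was 0.08. The part of the narrower signal range of the Zfp148gt/+ arrays in this split was not tested beyond that fit.

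**Figure D1:**
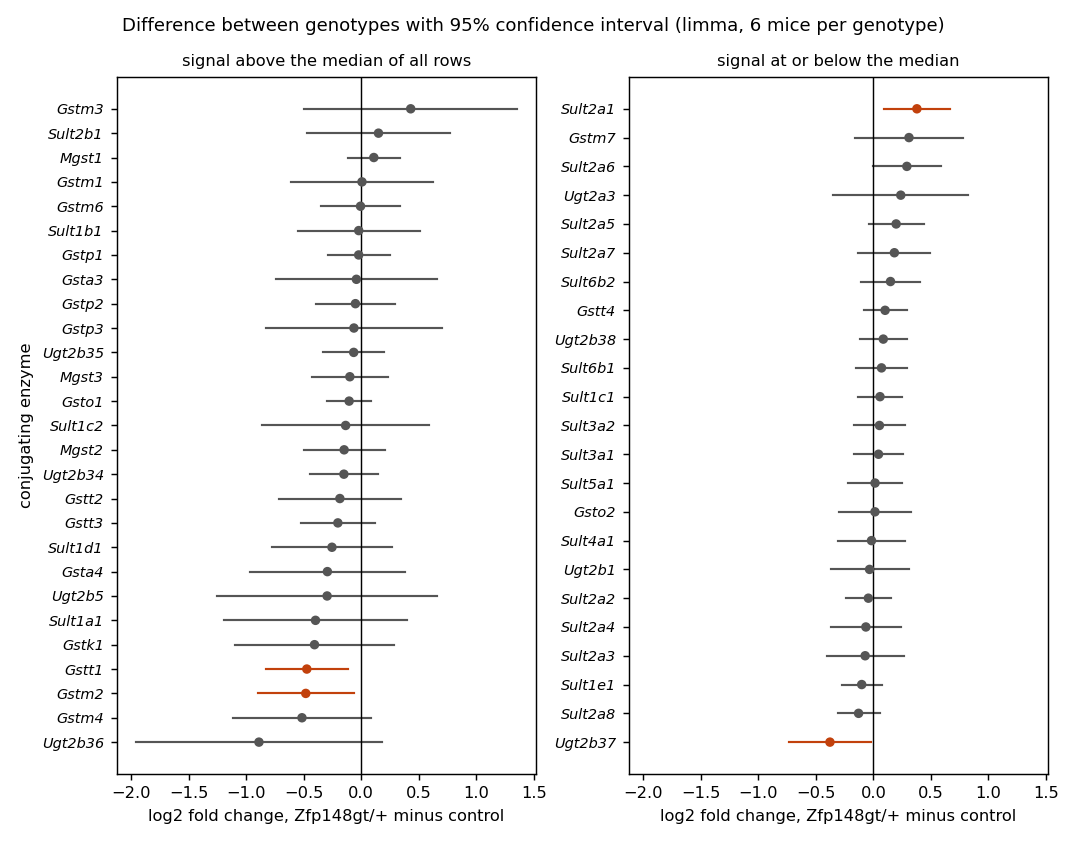
Log2 fold change (Zfp148gt/+ minus control, horizontal axis) of each of the 50 conjugating enzymes with its 95% confidence interval from limma, the 27 members above the median signal on the left and the 23 at or below it on the right. Points in red had an unadjusted p under 0.05, namely Gstt1, Gstm2, Ugt2b37 and Sult2a1, and 23 of the 27 brighter members lie left of 0.

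Glutathione S-transferases held both of the brighter members with an unadjusted p under 0.05. Gstt1 encodes a theta class enzyme that acts on small halogenated compounds. Its signal was 4.91, 4.75, 4.77, 5.09, 4.62 and 4.67 in controls 782, 885, 888, 889, 895 and 899, and 4.15, 4.51, 3.91, 4.12, 5.03 and 4.23 in Zfp148gt/+ mice 783, 891, 892, 893, 897 and 911. The signal of 5 of the 6 Zfp148gt/+ mice lay below that of every control, and mouse 897 lay among the controls. The mean was 4.33 ± 0.40 against 4.80 ± 0.17, a difference of -0.47 (95% confidence interval -0.83 to -0.11) on the log2 scale, or a ratio of 0.72 (0.562 to 0.924). The limma p was 0.0136 before and 0.725 after adjustment over all rows, and an exact permutation test (two-sided) gave 0.0281. The unadjusted limma p stayed under 0.05 with any 1 of the 12 mice left out. Of the 11 other alternatives 2 ended that call, with an unadjusted limma p of 0.120 without mice 891, 892 and 893 together, where the difference was -0.33, and 0.0522 with the interquartile range as a covariate, where it was -0.53.

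The other theta class genes, which lie in the same run of genes on chromosome 10, had smaller differences. Gstt2 was at 6.06 ± 0.50 in Zfp148gt/+ mice and 6.24 ± 0.43 in controls, and Gstt3 at 3.81 ± 0.32 and 4.01 ± 0.20. Their log2 fold changes of -0.19 (-0.71 to 0.34) and -0.20 (-0.52 to 0.12) had intervals that include 0. The difference between Gstt1 and its neighbours was not tested.

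Gstm2, a mu class enzyme, was at 6.34, 6.62, 6.09, 6.32, 6.95 and 6.23 in the controls and at 5.60, 6.03, 6.61, 5.79, 5.49 and 6.14 in the Zfp148gt/+ mice, in the order given for Gstt1. The signal of 4 Zfp148gt/+ mice lay below every control, while mice 892 and 911 fell within the range of the controls. The log2 fold change was -0.48 (-0.90 to -0.06), with a limma p of 0.0268 before and 0.725 after adjustment and an exact permutation p of 0.0476. The unadjusted p passed in 7 of the 12 fits without 1 mouse and reached 0.0654 without control 895. Across the 12 mice Gstm2 followed the mean of the fibroblast and smooth muscle markers (Pearson r = 0.68), and with that mean as a covariate its log2 fold change was -0.19 (limma p = 0.442 before adjustment). The call before adjustment was also lost with a further quantile normalization (-0.41, limma p of 0.0637) and with the interquartile range as a covariate (-0.56, limma p of 0.0714). The part of stromal RNA in the Gstm2 difference was not tested further.

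The remaining mu class genes diverged. Gstm4 was at 3.27 to 4.68 in controls and 2.98 to 4.25 in Zfp148gt/+ mice, a log2 fold change of -0.52 (-1.11 to 0.08), and 3 Zfp148gt/+ mice lay below every control. Gstm3 was at 3.59 to 6.25 in controls and 4.25 to 6.40 in Zfp148gt/+ mice, with a log2 fold change of 0.43 (-0.50 to 1.36), the highest of the 27 brighter members. Gstm1 and Gstm6 differed by 0.01 (-0.61 to 0.62) and -0.01 (-0.35 to 0.33). Gstm1 to Gstm4 and Gstm6 lie side by side on chromosome 3 and are closely related in sequence, so signal from 1 of them on the probes of another cannot be told apart here.

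**Figure D2:**
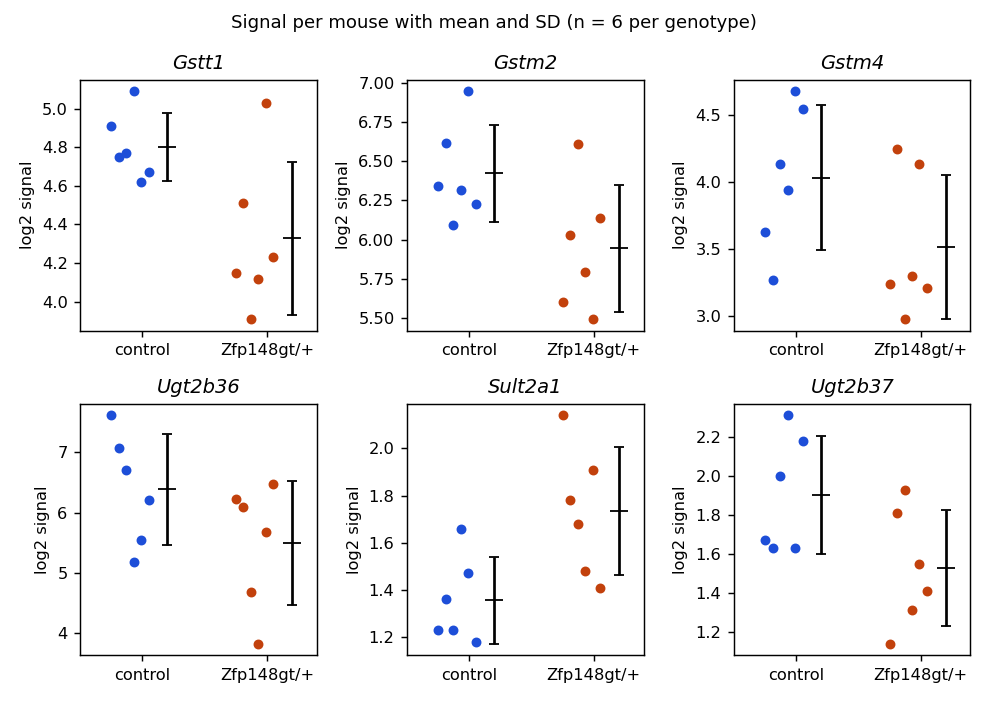
Log2 signal of each mouse (points) with the mean and SD of each genotype (bars, n = 6) for Gstt1, Gstm2, Gstm4, Ugt2b36, Sult2a1 and Ugt2b37, each panel on its own vertical scale. The genotypes overlap in every panel, and in Gstt1 a single Zfp148gt/+ mouse, at 5.03, lies within the range of the controls.

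Gstp1, Gsto1 and Mgst1 had narrow spreads, unlike the pi class gene Gstp3, which ran from 5.68 to 8.02 and differed by -0.06 (-0.83 to 0.70). Gstp1, the pi class enzyme of epithelia, was at 10.76 to 11.25 in controls and 10.61 to 11.24 in Zfp148gt/+ mice, a log2 fold change of -0.02 (-0.29 to 0.25). Gstp2 differed by -0.05 (-0.40 to 0.29) and the row shared by Gstp1 and Gstp2 by -0.11 (-0.38 to 0.16). Gsto1, an omega class enzyme that reduces dehydroascorbate, was at 9.36 to 9.63 in controls and 9.12 to 9.48 in Zfp148gt/+ mice. Its SD within a genotype, 0.124, was the lowest of the 27 brighter members, and its log2 fold change was -0.11 (-0.30 to 0.09). The membrane-bound Mgst1 was at 7.82 ± 0.15 in Zfp148gt/+ mice and 7.71 ± 0.18 in controls, a difference of 0.11 (-0.11 to 0.33). Mgst2 and Mgst3, whose products can make cysteinyl leukotrienes, differed by -0.15 (-0.50 to 0.20) and -0.10 (-0.43 to 0.23). For Gstp1, Gsto1 and the 3 Mgst genes the intervals exclude a change of 1 log2 unit in either direction.

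Kappa and alpha class genes varied more between mice. Gstk1, the enzyme of mitochondria and peroxisomes, was at 4.79 to 6.04 in controls and 4.11 to 6.02 in Zfp148gt/+ mice, with 3 Zfp148gt/+ mice below every control and a log2 fold change of -0.41 (-1.10 to 0.29). Gsta4, which clears the lipid peroxidation product hydroxynonenal, was at 6.20 to 7.64 in controls and 5.65 to 7.21 in Zfp148gt/+ mice, a log2 fold change of -0.29 (-0.97 to 0.38). Gsta3 differed by -0.04 (-0.74 to 0.66). The 3 rows shared by Gsta1, Gsta2 and predicted genes disagreed. They stood at -0.51 (-1.44 to 0.43), at 0.0026 (-0.64 to 0.65) and, in a dim row at 1.60 ± 0.21 in controls and 1.99 ± 0.12 in Zfp148gt/+ mice, at 0.39 (0.16 to 0.62).

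UDP-glucuronosyltransferases of the Ugt2b family gave the widest spread. Ugt2b36 and Ugt2b5, which act on steroids and drugs, lie near each other on chromosome 5. The windows around their starts are printed because this pair had the smallest p of all pairs of members compared below. Each window runs from 250 bases before to 50 bases after the start of the gene, from RefSeq with build GRCm38.p6, on the minus strand, chr5:87092506-87092805 for Ugt2b36 and chr5:87140291-87140590 for Ugt2b5. Capitals mark the runs of at least 8 identical bases that align between them.
Ugt2b36: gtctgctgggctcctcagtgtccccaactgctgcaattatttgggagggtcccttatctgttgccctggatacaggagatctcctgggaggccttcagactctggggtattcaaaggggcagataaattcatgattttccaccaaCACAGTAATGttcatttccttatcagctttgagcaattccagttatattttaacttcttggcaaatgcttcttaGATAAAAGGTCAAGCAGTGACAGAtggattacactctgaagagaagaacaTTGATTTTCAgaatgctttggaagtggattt
Ugt2b5: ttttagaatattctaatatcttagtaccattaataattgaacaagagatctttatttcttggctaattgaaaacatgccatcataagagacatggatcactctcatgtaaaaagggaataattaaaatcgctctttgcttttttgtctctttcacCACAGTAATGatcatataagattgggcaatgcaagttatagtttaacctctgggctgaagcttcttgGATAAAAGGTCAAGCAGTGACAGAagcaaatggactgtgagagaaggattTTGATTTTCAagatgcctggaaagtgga
The aligned windows agreed at 197 of 321 positions (61.4%). The longest shared run has 24 bases and begins 31 bases before the start of Ugt2b36 and 28 bases before that of Ugt2b5. Of 32851 RefSeq windows searched it occurs in 3, those of Ugt2b36, Ugt2b5 and Ugt2b37.

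Ugt2b36 was at 7.61, 7.07, 6.71, 5.18, 5.54 and 6.21 in the controls and at 6.23, 6.09, 4.68, 3.83, 5.68 and 6.47 in the Zfp148gt/+ mice. The genotypes overlapped over most of their range, with 2 Zfp148gt/+ mice, 892 and 893, below every control. The log2 fold change of -0.89 (-1.96 to 0.18) was the lowest of the 50 members, the limma p was 0.0964 (0.756 adjusted), and the exact permutation p was 0.147. Its SD within a genotype was 0.978, higher than that of 97.8% of all rows above the median signal. With Xist as a covariate the difference was -0.83, and with the interquartile range as a covariate it turned to 0.41.

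Ugt2b5 was at 7.58, 7.52, 6.69, 5.46, 5.90 and 7.12 in the controls and at 6.56, 7.13, 5.83, 5.33, 5.97 and 7.67 in the Zfp148gt/+ mice. Both genotypes covered nearly the same range, and the log2 fold change was -0.30 (-1.25 to 0.66). Ugt2b34 was at 8.63 ± 0.32 in Zfp148gt/+ mice and 8.78 ± 0.14 in controls, a difference of -0.15 (-0.45 to 0.15), and Ugt2b35 differed by -0.07 (-0.33 to 0.20). The dim Ugt2b37 was at 1.63 to 2.31 in controls and 1.14 to 1.93 in Zfp148gt/+ mice, with a log2 fold change of -0.38 (-0.73 to -0.02), a limma p of 0.0377 (0.726 adjusted) and an exact permutation p of 0.0563. Its unadjusted limma p passed in 5 of the 12 fits without 1 mouse, and was 0.0892 without control 889. The brighter of the rows shared by the Ugt1a genes, which code for the enzymes that also glucuronidate bilirubin, was at 7.33 ± 0.22 in Zfp148gt/+ mice and 7.35 ± 0.20 in controls, a difference of -0.01 (-0.27 to 0.25).

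Sulfotransferases divided into 5 brighter genes and 16 dim ones. Sult1d1, a sulfotransferase of phenols and catecholamines, was at 9.35, 9.09, 8.59, 8.54, 8.80 and 8.65 in the controls and at 8.95, 9.08, 8.03, 8.26, 7.96 and 9.22 in the Zfp148gt/+ mice. The signal of 3 Zfp148gt/+ mice lay below every control and the other 3 lay within the range of the controls, for a log2 fold change of -0.25 (-0.77 to 0.26). Sult1b1, which acts on phenols and thyroid hormones, differed by -0.02 (-0.55 to 0.51). The phenol sulfotransferase Sult1a1 was at 4.05 to 5.93 in controls and 3.55 to 5.36 in Zfp148gt/+ mice, a log2 fold change of -0.40 (-1.19 to 0.39). Sult2b1, which sulfates cholesterol, differed by 0.15 (-0.47 to 0.77) and Sult1c2 by -0.14 (-0.86 to 0.59).

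The dim sulfotransferases include the hydroxysteroid enzymes of the Sult2a family, which act on bile acids and androgens in liver. Sult2a1 was at 1.23, 1.36, 1.23, 1.66, 1.47 and 1.18 in the controls and at 2.14, 1.78, 1.68, 1.48, 1.91 and 1.41 in the Zfp148gt/+ mice. The signal of 4 Zfp148gt/+ mice lay above every control. The log2 fold change was 0.38 (0.09 to 0.66), with a limma p of 0.0135 (0.725 adjusted) and an exact permutation p of 0.0152. Both means, 1.73 ± 0.27 and 1.36 ± 0.18, are below the median signal of all rows, and whether transcripts of the gene were present cannot be told from these values. With stromal markers or the interquartile range as a covariate the difference was 0.21 and 0.22, with an unadjusted limma p of 0.249 and 0.262. Sult2a6 differed by 0.29 (-0.01 to 0.59) and Sult1e1, the estrogen sulfotransferase, by -0.10 (-0.28 to 0.07), both at signals below 2.3 in every mouse.

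Many of these enzymes varied widely between mice of the same genotype. The median SD within a genotype was 0.47 over the 27 brighter members and 0.307 over all rows above the median signal. An SD over 0.5 was found for 12 of the 27 (44.4%), beside 15.3% of all those rows. The widest were Ugt2b36 at 0.978, Ugt2b5 at 0.872, Gstm3 at 0.842, Sult1a1 at 0.717 and Gstp3 at 0.692. The narrowest after Gsto1 was Mgst1 at 0.164. Gstm3 ran from 3.59 in control 885 to 6.40 in Zfp148gt/+ mouse 783, a range of 2.81, and Ugt2b36 from 3.83 to 7.61, a range of 3.78.

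**Figure D3:**
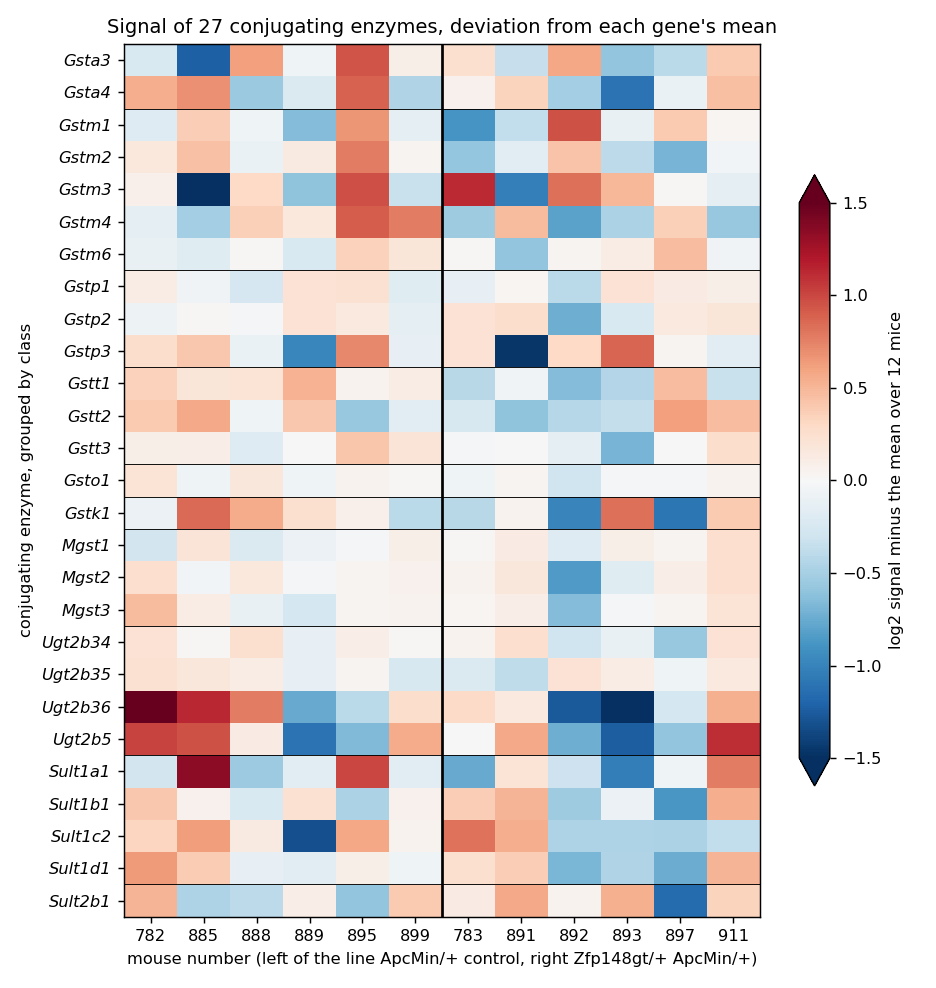
Log2 signal of the 27 brighter conjugating enzymes (rows, grouped by class) in each mouse (columns, controls left of the line), as the difference from the mean of that gene over the 12 mice, red for higher and blue for lower. Ugt2b36 and Ugt2b5 are high and low in nearly the same mice on both sides of the line, and mouse 892 is low in Gsto1, Mgst2 and Mgst3.

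Which enzymes varied together was asked over 351 pairs of the 27 brighter members, with permutation p-values (100000 permutations) adjusted over the pairs. For 3 pairs the Pearson correlation passed, and by Spearman's rho 0 passed. Ugt2b36 and Ugt2b5 had r = 0.87 (adjusted permutation p = 0.0386) and rho = 0.87 (adjusted 0.117). Their r was 0.93 within the controls, 0.88 within the Zfp148gt/+ mice, 0.84 in the 8 mice of low Xist and 0.84 without the 2 mice farthest from the median of Ugt2b36. Reading of both transcripts by the probes of either row cannot be told apart from a shared level, since the probe sequences were not used here.

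Sult1d1 and Ugt2b34 had r = 0.84 (adjusted permutation p = 0.0433) and rho = 0.74 (adjusted 0.195). The r was 0.40 within the controls and 0.94 within the Zfp148gt/+ mice, 0.83 in the 8 mice of low Xist and 0.66 without the 2 farthest mice. The cytosolic Gsto1 and the microsomal Mgst2 had r = 0.87 (adjusted permutation p = 0.0433) and rho = 0.78 (adjusted 0.194), with r of 0.97 within the controls and 0.96 within the Zfp148gt/+ mice. Mouse 892 held the lowest signal of both genes, and r was 0.72 without it, 0.81 in the 8 mice of low Xist and 0.63 without the 2 mice farthest in Gsto1.

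**Figure D4:**
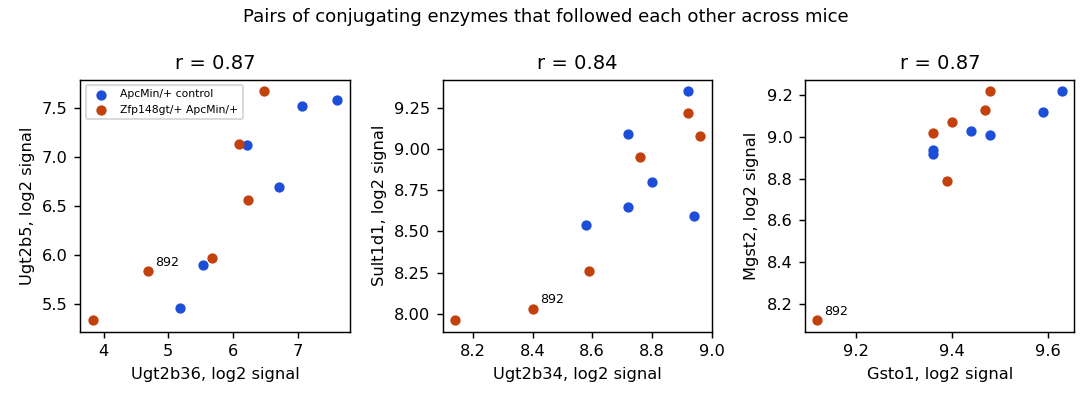
Log2 signals of the 3 pairs of conjugating enzymes whose Pearson correlation passed, 1 point per mouse, blue for controls and red for Zfp148gt/+ mice, with mouse 892 labelled. Ugt2b36 and Ugt2b5 rise together in both genotypes, while the third pair, Gsto1 and Mgst2, has mouse 892 far below the other 11.

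The first and the second of these pairs lie in the same cluster of genes on chromosome 5. Ugt2b34, Ugt2b35, Ugt2b36, Ugt2b5, Sult1b1 and Sult1d1 belong to 1 run of conjugating genes there, and the median r of their 15 pairs was 0.58 (-0.25 to 0.87). Over 320 pairs from different runs the median r was 0.11. The 10 pairs of Gstm genes had a median of 0.12, the 3 of Gstt genes 0.32 and the 3 of Gstp genes 0.01. These medians are descriptions, since pairs that share a gene are not independent. Against the mean of the villus enterocyte markers, r was 0.85 for Sult1b1, 0.72 for Sult1d1, 0.67 for Ugt2b5 and 0.58 for Ugt2b34. It was 0.46 for Ugt2b36 and -0.24 for Ugt2b35. The part of villus RNA in the correlations within the chromosome 5 run was not tested. Among the 15 pairs of start windows of the genes in that run, identity was 61.4% for Ugt2b36 and Ugt2b5 and 57.9% for Ugt2b35 and Ugt2b5. It was 54.9% for Ugt2b35 and Ugt2b36, and lowest at 42.2% for Sult1d1 and Ugt2b34. The window of Sult1d1 (chr5:87568957-87569256, minus strand) is printed as that of the sulfotransferase in the second pair. Capitals mark a half-site of the liver and intestine factor HNF1, GTTAAT, that starts 79 bases before the gene.
Sult1d1: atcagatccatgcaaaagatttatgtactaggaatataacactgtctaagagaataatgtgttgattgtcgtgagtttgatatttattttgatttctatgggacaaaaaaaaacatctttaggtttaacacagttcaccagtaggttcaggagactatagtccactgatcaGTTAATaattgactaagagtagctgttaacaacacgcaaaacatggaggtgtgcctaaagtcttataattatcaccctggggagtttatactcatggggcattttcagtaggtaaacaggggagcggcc
That half-site, searched on both strands and chosen after values had been seen, was in 9 of 55 windows of the members (16.4%) and in 7.10% of all windows. Of the 25 brighter members with a window 3 held it. The dim members that held it include the related Sult2a3, Sult2a4, Sult2a5 and Sult2a6, which lie in 1 run on chromosome 7. The core of the antioxidant response element, TGACNNNGC, bound by the stress factor Nrf2, was in 3 of 55 (5.45%), those of Gsta3, Gstm7 and Mgst1, and in 12.4% of all windows. The GC box, GGGCGG, to which zinc finger factors such as Sp1 bind, was in 15 of 55 (27.3%) and 35.7%. The 55 windows belong to 44 of the 50 members, and some genes have more than 1.

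Conjugating enzymes were next set against the signal of villus markers, since microdissected crypts can carry villus cells. Of the 27 brighter members, 6 (22.2%) had r above 0.5 with the mean of the 21 villus enterocyte markers and 3 (11.1%) had r below -0.5, beside 7.21% and 4.50% of all rows above the median signal. Sult1b1 was the 1 member that passed, with r = 0.85 (permutation p adjusted over the 27 = 0.0157) and rho = 0.80 (adjusted 0.0584, not passing). Its r was 0.88 within the controls, 0.90 within the Zfp148gt/+ mice, 0.83 without mouse 892 and 0.81 without the 2 mice farthest in the villus mean, where the adjusted permutation p was 0.135. Sult2b1 had r = 0.74, Sult1d1 0.72, Ugt2b5 0.67, Mgst3 0.64 and Ugt2b34 0.58, none of which passed adjustment. At the other end Gstm6 had r = -0.65, Gstm3 -0.55 and Gstm1 -0.52, and these did not pass either. Sult1b1, Sult1d1, Ugt2b5 and Ugt2b34 lie in 1 run of genes on chromosome 5, and Gstm1, Gstm3 and Gstm6 in 1 run on chromosome 3. The shares with r above 0.5 and below -0.5 therefore do not count independent genes. Gstt1 and Gstm2 had r of 0.09 and -0.04. The villus mean was 5.71 ± 0.31 in Zfp148gt/+ mice and 5.77 ± 0.31 in controls, with p = 0.723 by exact permutation, and with it as a covariate the calls before adjustment again numbered 1 higher and 3 lower. In tissue samples, fewer cells of a type and less RNA per cell cannot be told apart.

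**Figure D5:**
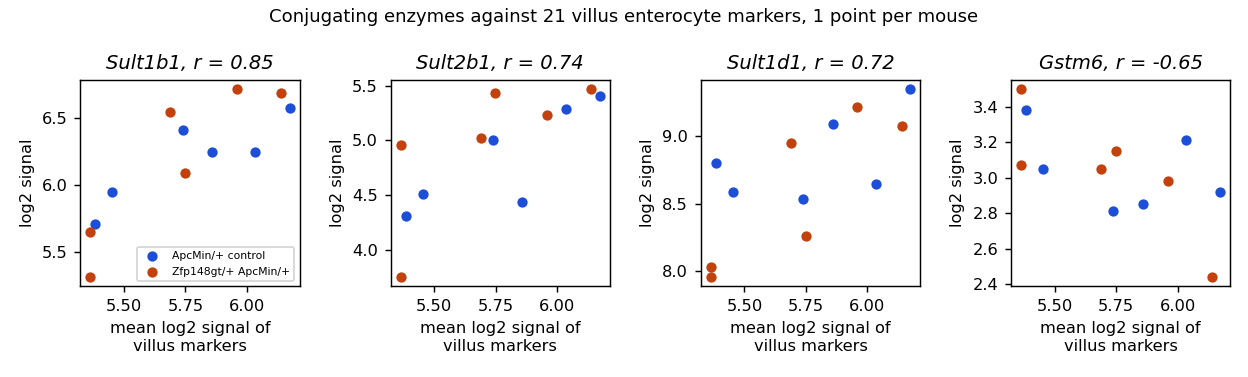
Log2 signal of Sult1b1, Sult2b1, Sult1d1 and Gstm6 (vertical axes) against the mean log2 signal of 21 villus enterocyte markers (horizontal axis), 1 point per mouse, blue for controls and red for Zfp148gt/+ mice. Across the 12 mice Sult1b1 rises with the villus mean (r = 0.85) and Gstm6 falls (r = -0.65), with both genotypes spread along the axis.

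Genes that feed, regulate and follow conjugation were read from lists, and none of their genes passed adjustment by limma. Their calls before adjustment stand beside 3.88% of all rows higher and 2.88% lower. In each list most genes were above the median signal of all rows. Among all rows of that signal 2.41% were called higher and 5.08% lower, and 58.4% had a lower mean. Of 13 measured genes of glutathione supply and recycling, 9 had a higher and 4 a lower mean, with 0 at an unadjusted p under 0.05 in either direction and a median log2 fold change of 0.03. Slc7a11, the cystine importer, was at 3.02 ± 1.60 in Zfp148gt/+ mice and 1.96 ± 0.27 in controls (log2 fold change 1.06, -0.20 to 2.32), with mouse 892 at 5.84 and mouse 897 at 3.99. Ggct, of the same list, differed by 0.29 (-0.11 to 0.69). Of 13 genes on the list for UDP-glucuronic acid and sulfate donors, 0 were called and the median was -0.03 (6 higher, 7 lower). Papss1, which makes the sulfate donor, differed by -0.45 (-0.92 to 0.02), and Slc35a1, which carries CMP-sialic acid rather than either donor, by -0.55 (-1.14 to 0.05).

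Further along the pathway, 0 of 11 transporters of conjugates were called, with a median of -0.05. Slco2b1, an uptake carrier of sulfated steroids, differed by -0.22 (-0.45 to 0.02) and the efflux pump Abcb1a by -0.36 (-0.84 to 0.11). Among 12 other conjugating or detoxifying enzymes 1 was called higher and 1 lower before adjustment. Tpmt, which methylates thiopurines, was at 4.41 ± 0.39 in Zfp148gt/+ mice and 5.09 ± 0.40 in controls (log2 fold change -0.67, -1.13 to -0.22), with 5 Zfp148gt/+ mice below every control, and the dim Hnmt, which methylates histamine, at 2.40 ± 0.29 and 1.99 ± 0.17 (0.41, 0.12 to 0.70), both with a limma adjusted p of 0.725. Of 8 genes on the list for the removal of conjugates 0 were higher and 1 lower at that threshold, with a median of -0.28. The lower one was Sumf1, which activates sulfatases and does not itself remove a conjugate, at -0.44 (-0.74 to -0.14). Among 17 regulators, 4 had a higher and 13 a lower mean, 0 were called in either direction, and the median was -0.11. Mafg, a small partner of Nrf2, differed by 0.30 (-0.02 to 0.63) and the bile acid receptor Nr1h4 by -0.48 (-1.02 to 0.07).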

How the data were processed

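Crypt-enriched tissue of 12 mice was profiled, 6 Zfp148gt/+APCMin/+ and 6 Zfp148+/+APCMin/+, on 1 array each. For normalization the authors used RMA in Affymetrix Expression Console, which the methods and the submitters' processing notes both name. The version of the software, its library files and the build are not stated in those sources. The authors deposited 1 value per row and mouse between 0.85 and 13.24, taken here as log2 because the base is not written, and ratios rest on that reading. RMA makes the arrays alike in distribution, and an array has no read depth, so the number of mice limits the precision. Symbols came from the array annotation: 23521 rows carry 1 symbol, 1820 several and 8452 none. The IDs of all 50 members were found in a RefSeq table of GRCm38.p6. A dim value has no detection call here.

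Every row was fitted in limma 3.58.1 (lmFit, eBayes) under R 4.3.3, with no filter or covariate, Benjamini-Hochberg adjustment over all rows, a threshold of 0.05 and 95% confidence intervals, as limma and this adjustment are named in the methods. Single values were compared by exact permutation over 924 assignments (two-sided, smallest p 0.0022), in Python 3.11.15 with scipy 1.17.1. The fit was tested on simulated data. Correlations over mice used 100000 permutations. Alternatives were centred arrays, a further quantile normalization, trend and robust options of eBayes, brighter rows only, weighted arrays, averaged rows of a gene, covariates for villus markers, stromal markers and interquartile range, 3 mice left out together, each mouse left out in turn and adjustment over rows with 1 symbol; Xist as a covariate was chosen after seeing the data. Members and lists were chosen with earlier results of these data known. Named by rule were Zfp148, members with an unadjusted p under 0.05, the brightest member and that of smallest p in each class, members with an outlying mouse, those at the ends of the villus correlation, and in each pathway list the genes under 0.05 or else the 2 of smallest p. Other members were named after their values were seen. Protein sequences were not used here.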

Additional observations from a re-analysis of the deposited data

Results flagged for a closer look

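An outlying mouse was looked for in each genotype of each of the 50 members, by the gap of the highest or lowest mouse to its neighbour against the range of the 6 mice, and 10 of 100 groups passed Dixon's 95% limit. Chance alone marks about 1 group in 20. The nearest mouse given below is the nearest of the same genotype, and mice of the other genotype can lie closer.

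Among the brighter members, Zfp148gt/+ mouse 892 held the lowest Gsto1 signal, 9.12, with the nearest mouse at 9.36, and the lowest Mgst3 signal, 8.12, with the nearest at 8.75. Zfp148gt/+ mouse 897 was at 3.75 for Sult2b1, where the nearest was at 4.96, and control 889 was at 3.20 for Sult1c2, where the nearest was at 4.57.

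Among the dim members, mouse 892 was the highest for Sult2a3 at 2.23 (nearest 1.71) and the lowest for Sult5a1 at 1.87 (nearest 2.25). Mouse 897 was at 2.45 for Sult2a4 (nearest 1.98), where control 899 was at 2.48. Mouse 911 was at 2.46 for Sult6b1 (nearest 2.07). Control 889 was at 2.05 for Sult2a7 (nearest 1.57). Control 782 was at 3.03 for Ugt2a3 (nearest 1.84), but Zfp148gt/+ mouse 783 was at 2.94 and mouse 891 at 2.50. Control 782 also had the highest villus mean, 6.17, while that of mouse 783 was 5.69. The array of mouse 892 had the lowest interquartile range (2.69), median correlation with the other arrays (0.9675) and array weight (0.721) of all. Next came mice 891 and 893, with interquartile ranges of 2.71 and 2.71 and correlations of 0.9693 and 0.9684. Why single mice stand apart, and the part of these array differences in it, was not tested.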

How the results depend on the processing

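No member passed adjustment under any alternative. The count higher at an unadjusted p under 0.05, 1 in the reported fit, was 0 among brighter rows and with the interquartile range as a covariate, 2 with trend and robust eBayes, with stromal markers as a covariate and without mice 891, 892 and 893, and 1 to 3 with each mouse left out (3 without control 782, 2 without control 888, Zfp148gt/+ 783 or Zfp148gt/+ 897). The count lower, 3, was 2 with a further quantile normalization, among brighter rows (which leave out Ugt2b37), with the interquartile range as a covariate (Ugt2b37 and Sult2a3) and without mice 891, 892 and 893, and 3 under the other alternatives, where with stromal markers as a covariate Gstm4 was called and Gstm2 was not. It ranged from 1 to 4 with each mouse left out, with 1 without Zfp148gt/+ mouse 783 or 893. The median over the members, -0.04, was -0.14 among brighter rows, 0.079 with the interquartile range as a covariate, and -0.07 to -0.01 with each mouse left out. The count of members that follow the villus mean, 1, was 0 in controls alone, in Zfp148gt/+ mice alone and without the 2 farthest mice, where fewer mice entered. No paired analysis was possible because the methods do not say which mice were littermates. Of 32 named members 11 kept their sign in every setting, among them Gstt1, Gstm2, Gstm4, Ugt2b37 and Sult2a1, and 21 changed it in at least 1.

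The signs turned as follows, as log2 fold changes. With centred arrays Sult5a1 was -0.029. With a further quantile normalization Sult1b1 was 0.062 and Sult5a1 -0.040. With array weights Gstp2 was 0.0054 and Sult1b1 0.036. With villus markers as a covariate Sult1b1 was 0.059. With stromal markers as a covariate Gstm6 was 0.029, Sult1a1 0.0288, Sult1c2 0.47, Sult2a4 0.039, Sult5a1 -0.093 and Ugt2b5 0.40. With the interquartile range as a covariate Gsta4 was 0.21, Gstm6 0.086, Gsto1 0.037, Gstp2 0.092, Gstt2 0.11, Gstt3 0.016, Mgst2 0.18, Mgst3 0.25, Sult1b1 0.24, Sult1c2 0.36, Sult1d1 0.26, Sult2a7 -0.21, Sult5a1 -0.0004, Ugt2b34 0.072, Ugt2b36 0.41 and Ugt2b5 0.84. Without mice 891, 892 and 893 Gstm6 was 0.14, Gstp1 0.0165, Gstp2 0.16, Gstt2 0.19, Mgst2 0.0645, Mgst3 0.043, Sult1b1 0.0033, Sult2a4 0.006, Sult2a7 -0.042, Sult2b1 -0.16 and Ugt2b5 0.021. With each mouse left out Gstm6 ranged from -0.10 to 0.11, Gstp1 from -0.0755 to 0.056, Gstp2 from -0.11 to 0.0905, Mgst2 from -0.22 to 0.0057, Mgst3 from -0.16 to 0.021, Sult1b1 from -0.13 to 0.15, Sult2a4 from -0.15 to 0.0156, Sult5a1 from -0.048 to 0.083 and Sult6b1 from -0.0093 to 0.11. The cause was not tested.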
